A study of Mus musculus with 4 samples.

Results

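The 10 genes described here encode enzymes that build triglyceride in the liver: Gpd1, Gpam, Agpat2, Agpat3, Lpin1, Lpin2, Mogat1, Mogat2, Dgat1 and Dgat2. They were found by gene name among the probes of dual-colour Agilent whole mouse genome arrays, and every probe that carries one of these names and is not a control spot was taken. This gave 27 probes of the 10 genes, out of 41174 probes with 26582 gene names. The liver RNA came from male C57BL/6J mice made obese by diet (DIO mice). They were purchased at 8 weeks of age, ate a high-fat diet for 14 weeks and weighed at least 40 g. The diet went on during treatment. Before it the mice were acclimatized, for 2 weeks by the labels and 1 week by the methods, which describe once-daily intranasal saline. GALP (galanin-like peptide, a hypothalamic neuropeptide, here porcine GALP) was dropped into the nose once daily for 11 days in a volume of 2 µL, in saline with 5% α-cyclodextrin. The dose is given as 1 nmol. Saline-treated DIO mice were the control, so diet, obesity and intranasal handling were common to all groups. The methods name α-cyclodextrin for the GALP solution only, and whether the control saline held it is not stated. The GALP-treated mice were split by how much weight they lost, and the RNA of the 4 that lost more and of the 4 that lost less was pooled separately, while 8 saline-treated mice gave 1 control pool. With a dye swap for either GALP pool the study used 4 arrays, all on 1 slide. Since both arrays of a dye swap hold the same RNA, they were averaged, the replicate is the pool (n = 2), and single mice cannot be seen. In the labels the control RNA carries a weight loss group too, whereas the methods describe 1 control pool, and it was handled as 1 sample whose spread enters no SD and no test.

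Triglyceride is assembled on a glycerol backbone. Glycerol-3-phosphate is made by the cytosolic enzyme Gpd1, receives its first fatty acid from a glycerol-3-phosphate acyltransferase such as Gpam and its second from an acylglycerol-phosphate acyltransferase of the Agpat family. The phosphatidate formed in this way is dephosphorylated by a lipin to diacylglycerol, to which Dgat1 or Dgat2 adds the last fatty acid. Mogat1 and Mogat2 reach diacylglycerol by another way, from monoacylglycerol, which is the main route of fat re-synthesis in the intestine. In the liver, Gpam and other lipogenic genes are known targets of the transcription factor SREBP-1c, which is encoded by Srebf1 and held back by the Insig proteins.

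Values are log2 ratios of the GALP signal over the control signal, so that a negative ratio is lower with GALP, and 4 values are given in the order greater weight loss pool with GALP in Cy5, the same pool with GALP in Cy3, less weight loss pool with GALP in Cy5, and that pool with GALP in Cy3. Probes of a gene are numbered from the brightest, probe 1 stands for the gene, and probe positions are on mm9, as in the deposited files. The files name no exon or UTR. Feature Extraction, the scanner software, gave each ratio a p-value, which sets one extract against the other on a single array and does not test the treatment. Following the thresholds in the methods, a probe was called if the fold was over 1.5 or under 0.75 in both pools and all 4 arrays gave the same direction with a p-value under 0.01. A detected probe is one that on every array was well above background in at least 1 channel. Signals are compared between channels of the same probe, since the brightness of different probes does not give the order of RNA levels.

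Each array held 43379 spots, of which 40.5% to 46.7% were well above background, depending on the channel, and 0 were saturated. The precision is limited by the number of arrays. All 10 hepatocyte marker genes examined, such as Alb and Ttr, were well above background in every channel. Markers of other tissues were not equally present in the pools. Of 14 stomach and intestine markers, 4 were detected, and all 4 were lower with GALP on every array. Gkn2 and Tff1, which are made in the stomach, were called lower. Gkn2 was above background in all 4 control channels and 0 of 4 GALP channels, which makes it at least 15.9-fold lower, and 6 markers of the list, Cdx2 and Gkn1 among them, were at background in every channel. The summed signal of the list was 19800 to 26050 in the GALP channels and 23310 to 31920 in the control channels. The 7 skeletal muscle markers had a summed signal of 516 to 4351 in the GALP channels, where the pools differed, and 2922 to 3571 in the control channels. Of 7 adipocyte markers, 3 were detected and the leptin and resistin genes (Lep and Retn) were at background in every channel. The sums were 4778 to 5879 with GALP and 4015 to 4698 in the control, but the 3 detected genes did not share a direction. Cfd was below 0 on all 4 arrays (mean -0.81) and Fabp4 above 0 on all 4 at its brightest probe (mean 0.35). Adipoq had 0.38 in the greater and -0.26 in the less weight loss pool. All 7 macrophage markers were detected, with sums of 23890 to 29100 with GALP and 21010 to 23590 in the control. Marco was called higher (mean 0.87 ± 0.25). Of the 7, 4 were above 0 and 0 below 0 on all 4 arrays, while Clec4f, Vsig4 and Timd4 had both signs. The part of these differences in the values of the enzymes was not tested.

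By this rule 2 of the 27 probes were called lower in both GALP pools and 0 were called higher. Both called probes were those of Gpam, the enzyme of the first acylation. Over all 41037 probes with a value on every array, 0.132% were called lower and 0.0585% higher, which makes 0.19% in either direction. Over the 15724 detected probes the shares were 0.343% and 0.153%, or 0.496% together. Applied to a single pool, the rule called the same 2 Gpam probes lower and 0 higher in each, beside 0.396% lower and 0.292% higher of all probes in the greater weight loss pool and 0.363% and 0.234% in the less weight loss pool. Of the 27 probes, 25 were detected, 23 of them in all 8 channels. The ratio was below 0 on all 4 arrays at 8 probes, above 0 on all 4 at 6, and of both signs at 13, while 15.7% of all detected probes were below 0 and 11.4% above 0 on all 4 arrays. At probe 1 of each gene the median ratio of the 10 genes was -0.0023, beside -0.01 over the 11406 gene names detected, so the genes did not lie to 1 side of the others. With limma on the ratios of the 2 pools, 0 of the 27 probes passed an adjusted p of 0.05 and the lowest adjusted p was 0.374, which was also the lowest over all probes. Without adjustment, 7 probes were lower and 5 higher at p under 0.05, while 6.6% and 4.99% of all probes and 12.4% and 7.84% of detected probes were. The 7 include Mogat2 probe 2, which was not detected and whose ratios split by dye. An exact sign-flip test over 2 pools cannot give a two-sided p below 0.5.

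**Figure D1:**
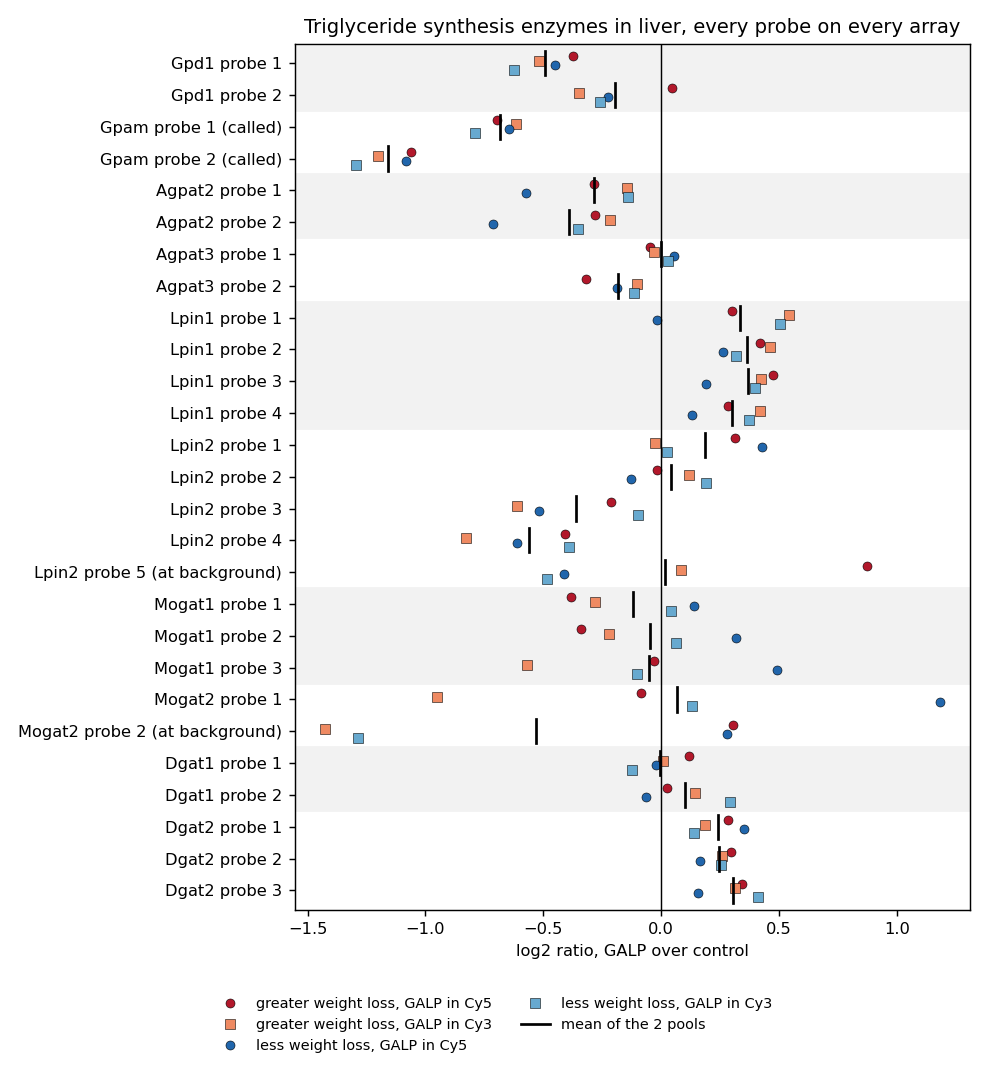
The log2 ratio of GALP over control (x axis) is plotted for each of the 27 probes of the 10 enzymes (rows, in the order of the pathway), with 1 point per array, colours for the pools, shapes for the dye orientation and a black bar for the mean of the 2 pools. Both Gpam probes lie left of 0 on all 4 arrays, all 3 Dgat2 probes lie right of it, and the Mogat2 probes and Lpin2 probe 5 spread widely.

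Gpd1, which makes the glycerol-3-phosphate that is acylated, was lower on all 4 arrays at its probe 1 and was not called. The signal at this probe (chr15:99555334-99555393) was 31090, 24610, 31990 and 25270 in the GALP channels and 40350, 35260, 43740 and 38940 in the control channels. The ratios were -0.38, -0.52, -0.45 and -0.62, all below 0 and close to each other. The mean was -0.49 ± 0.06 (SD, n = 2 pools), a fold of 0.711, and both pools passed the fold threshold. Only 1 array had a Feature Extraction p-value under 0.01. The unadjusted limma p was 0.0172 and the adjusted p 0.374. Probe 2, with signals of 540 to 731 over all channels, had 0.05, -0.35, -0.23 and -0.26, with a mean of -0.20 ± 0.07. It was therefore below 0 on 3 of 4 arrays.

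Gpam, the mitochondrial glycerol-3-phosphate acyltransferase, was the only one of the 10 enzymes with a called probe. At probe 1 (chr19:55142203-55142262) the GALP channels read 12000, 10250, 13090 and 10620, and the control channels read 19450, 15690, 20450 and 18340. The highest GALP signal was thus below the lowest control signal. The ratios were -0.70, -0.61, -0.64 and -0.79, with a difference of 0.06 between the pools, and the fold was 0.622. The limma interval (95%) of the mean ratio ran from -0.85 to -0.52, with an unadjusted p of 0.00613 and an adjusted p of 0.374. Probe 2 (chr19:55145403-55145462) belongs to another transcript record of the gene and had signals of 166 to 196 in the GALP channels and 384 to 414 in the control channels. Its ratios were -1.06, -1.20, -1.08 and -1.29, and its fold was 0.448. At both probes the signals of the GALP channels did not overlap those of the control channels. By the methods the control channels all read the same pool, so this separation does not show the spread between mice. How many of the other detected probes have such a separation was not counted. Ratios lower than that of probe 1 were found at 1.22% of all detected probes, and lower than that of probe 2 at 0.477%. In bulk liver RNA, fewer cells of a type and less RNA per cell cannot be told apart.

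Because Gpam was the called gene, the sequence before its transcription starts is shown. RefSeq promoter sequences (GRCm38.p6) were at hand for 6 of the 10 genes (Gpam, Agpat2, Agpat3, Lpin1, Lpin2 and Mogat1), with 9 start sites in all. The 250 bases before each start were searched on both strands for CACCCCAC, the core of the sterol regulatory element bound by SREBP, for CCAAT, bound by NF-Y, and for the E-box CACGTG, bound by USF and by ChREBP with Mlx. Both Gpam windows are on the minus strand, at chr19:55127239-55127488 for the upstream start and chr19:55099478-55099727 for the downstream start, and capitals mark the motif letters. Lpin1, whose mean ratio at probe 1 was the highest of the 10 over all 4 arrays, is shown beside them (minus strand, chr12:16610967-16611216). These coordinates are of another build than the probe positions and cannot be set against them.
Gpam, upstream start: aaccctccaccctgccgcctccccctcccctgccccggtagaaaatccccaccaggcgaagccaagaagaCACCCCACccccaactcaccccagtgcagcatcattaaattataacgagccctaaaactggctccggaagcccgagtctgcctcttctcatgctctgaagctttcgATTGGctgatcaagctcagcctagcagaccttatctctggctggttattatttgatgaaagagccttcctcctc
Gpam, downstream start: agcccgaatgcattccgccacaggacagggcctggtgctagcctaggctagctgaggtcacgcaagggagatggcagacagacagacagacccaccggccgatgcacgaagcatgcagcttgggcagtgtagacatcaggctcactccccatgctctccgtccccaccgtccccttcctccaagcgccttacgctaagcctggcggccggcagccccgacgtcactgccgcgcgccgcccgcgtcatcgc
Lpin1: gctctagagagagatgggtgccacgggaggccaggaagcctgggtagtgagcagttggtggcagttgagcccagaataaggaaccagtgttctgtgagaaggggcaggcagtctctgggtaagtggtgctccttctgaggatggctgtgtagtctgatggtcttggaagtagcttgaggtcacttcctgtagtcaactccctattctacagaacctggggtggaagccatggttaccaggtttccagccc
The upstream Gpam window holds CACCCCAC from 180 to 173 bases before the start and CCAAT, as its reverse complement ATTGG, from 74 to 70 bases before it. The downstream Gpam window and the Lpin1 window hold none of the 3 motifs. Among all 32851 windows of this length, 2.58% hold CACCCCAC, 33.8% hold CCAAT and 6.02% hold CACGTG. Of the other windows, that of 1 Lpin2 start holds CCAAT 3 times and that of another Lpin2 start holds CACGTG, while those of Agpat2, Agpat3 and Mogat1 hold none. These are matches of letters, and binding was not measured.

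The second acylation showed smaller ratios. Agpat2, an acyltransferase of the endoplasmic reticulum whose loss causes lipodystrophy, was below 0 on all 4 arrays at both probes and was not called. Probe 1 (chr2:26451628-26451687) had ratios of -0.28, -0.15, -0.57 and -0.14, a mean of -0.29 ± 0.10. Probe 2 had -0.28, -0.22, -0.71 and -0.35, a mean of -0.39 ± 0.20. At both probes the array of the less weight loss pool with GALP in Cy5 gave the lowest ratio, and it alone had a Feature Extraction p-value under 0.01. Agpat3, a broadly expressed member of the family, was near 0 at probe 1, with -0.05, -0.03, 0.06 and 0.03 and signals from 6489 to 7951 over all 8 channels. Its probe 2 had -0.32, -0.10, -0.19 and -0.12, a mean of -0.18 ± 0.04 with an unadjusted limma p of 0.0404. The probes of Agpat3 thus differed in whether the ratio was below 0 on all arrays.

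The lipins turn phosphatidate into diacylglycerol. Lpin1, which also acts in the nucleus on transcription and is induced in the liver by fasting, was not called. Its 4 probes had means of 0.33 ± 0.13, 0.36 ± 0.11, 0.37 ± 0.11 and 0.30 ± 0.07, and 15 of the 16 ratios were above 0. The exception was probe 1 (chr12:16544129-16544188), with 0.30, 0.54, -0.02 and 0.50, where the array of the less weight loss pool with GALP in Cy5 stood apart from the other 3. Probe 2 had 0.42, 0.46, 0.26 and 0.32, and its signal was 8005 to 10810 with GALP and 6429 to 8073 in the control. In both pools the 4 probes gave a fold under 1.5, so none was called. Probes 3 and 4 share 40 bases and are not independent. At all 4 probes the pool with greater weight loss had the higher ratio, by 0.18, 0.15, 0.16 and 0.10.

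Lpin2, the other lipin of the liver, had 5 probes whose ratios did not share a direction. At probe 1 (chr17:71598998-71599057) the ratios were 0.31, -0.03, 0.43 and 0.03, a mean of 0.19 ± 0.06. They followed the dye, with both arrays that carried GALP in Cy5 above both that carried it in Cy3. Probe 2 had 0.04 ± 0.01. Probes 3, 4 and 5 belong to cDNA clone records and lie within the same stretch of the chromosome, from 71556267 to 71589544. Probe 3 had -0.21, -0.61, -0.52 and -0.10, and probe 4 had -0.41, -0.83, -0.61 and -0.39, with means of -0.36 ± 0.07 and -0.56 ± 0.08. Both were below 0 on all 4 arrays. The signal of probe 4 was low, 28.3 to 39.5 in the GALP channels and 46.4 to 54.4 in the control channels, and no array gave a Feature Extraction p-value under 0.01. Probe 5 was not detected by the rule above, with 3 of 4 GALP channels and 1 of 4 control channels well above background, and its ratios ran from -0.48 to 0.87. Which of these clone sequences belong to the Lpin2 mRNA is not stated in the files.

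**Figure D2:**
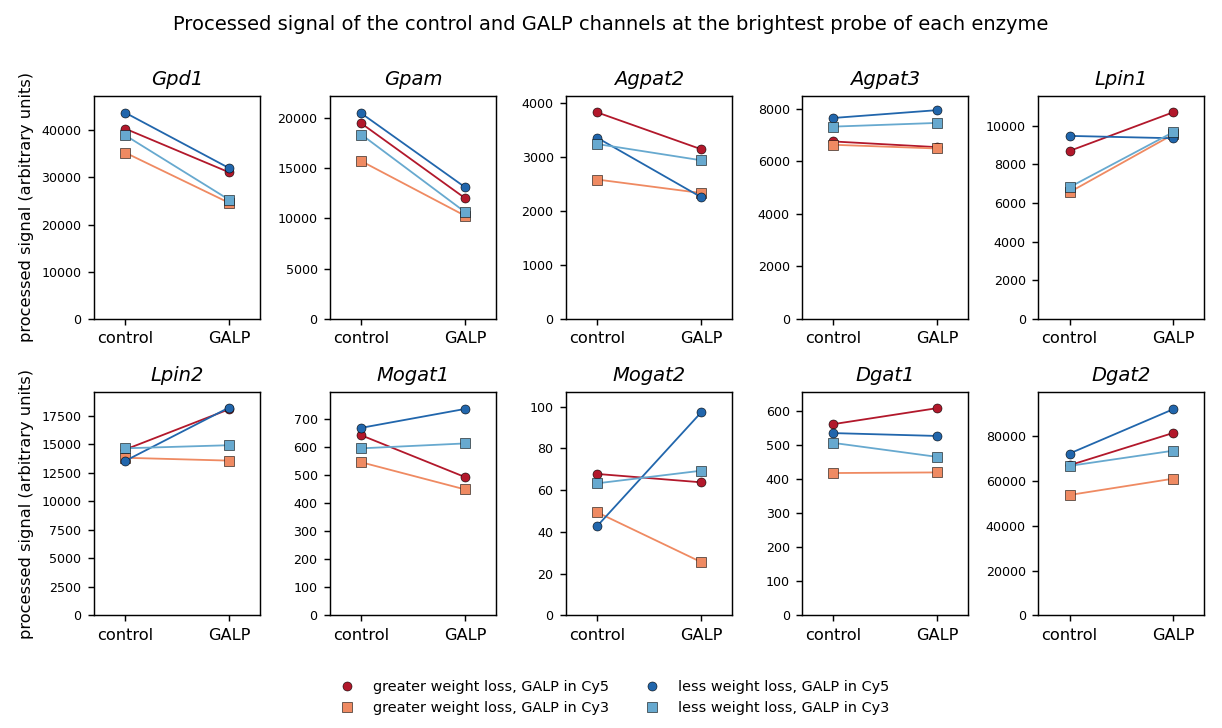
The processed signal (y axis, arbitrary units, linear from 0, a scale per panel) of the control and the GALP channel at probe 1 of each enzyme is joined for each of the 4 arrays. All 4 lines fall for Gpd1, Gpam and Agpat2 and rise for Dgat2, while the lines of Mogat1 fall in the greater weight loss pool and rise in the less weight loss pool.

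Mogat1, the monoacylglycerol acyltransferase whose mRNA is raised in fatty liver, had ratios of opposite sign in the pools. Probe 1 (chr1:78525761-78525820) had -0.38, -0.28, 0.14 and 0.04, or -0.33 as the mean of the greater weight loss pool and 0.09 as that of the other. The signals were 493 and 449 with GALP against 642 and 546 in the control for the first pool, and 736 and 613 against 668 and 595 for the second. Probe 2 had -0.34, -0.22, 0.32 and 0.06, and probe 3 had -0.03, -0.57, 0.49 and -0.10. The pools therefore differed by -0.42, -0.47 and -0.49 (greater minus less) at the 3 probes. At probes 1 and 2 this difference was larger than the gap between the 2 arrays of either pool (at most 0.10 and 0.26), and at probe 3 it was smaller than both gaps (0.54 and 0.59). With 1 pool per weight loss group the difference cannot be tested.

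Mogat2, the monoacylglycerol acyltransferase of the intestine, was close to the limit of measurement. Probe 1 (chr7:106367601-106367660) was well above background in 3 of 4 GALP and 3 of 4 control channels, with signals of 25.5 to 97.3. Its ratios were -0.09, -0.95, 1.18 and 0.13, and the SD of the pools (0.83) exceeded the mean (0.07). Probe 2 was at background in all 4 GALP channels and above it in 2 of 4 control channels. Its ratios of 0.30, -1.42, 0.28 and -1.29 split by dye, and both low ratios were those with the control in Cy5. No direction or limit is therefore given for Mogat2.

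The last acylation is carried out by Dgat1 and Dgat2, and Dgat2, which acts mainly on newly made fatty acids, was above 0 at each of its 3 probes. At probe 1 (chr7:106302215-106302274) the signals were 81390, 60990, 91980 and 73460 with GALP and 66960, 53700, 72190 and 66680 in the control. Each ratio was above 0, at 0.28, 0.18, 0.35 and 0.14, with a mean of 0.24 ± 0.01, a fold of 1.18 and an unadjusted limma p of 0.00636 (adjusted p 0.374). Probe 2 had 0.30, 0.26, 0.16 and 0.26, and probe 3 had 0.34, 0.31, 0.16 and 0.41. The 12 ratios of the 3 probes were thus all above 0, but the folds (1.18, 1.18 and 1.24) were under 1.5 and no Feature Extraction p-value was under 0.01. Dgat1, the acyltransferase of the same step, was near 0 at probe 1 (chr15:76333128-76333274), with 0.12, 0.01, -0.02 and -0.12. Its probe 2 had 0.03, 0.14, -0.07 and 0.29, a mean of 0.10 ± 0.02.

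Ordered by the mean ratio at probe 1, the genes ran from Gpam (-0.69) through Gpd1 (-0.49), Agpat2 (-0.29), Mogat1 (-0.12), Dgat1 (-0.01), Agpat3 (0.00), Mogat2 (0.07), Lpin2 (0.19) and Dgat2 (0.24) to Lpin1 (0.33). The pools of neighbours did not overlap at 3 of the 9 steps. Gpd1 lay above Gpam by 0.19 ± 0.02 and on 4 of 4 arrays. Agpat2 lay above Gpd1 by 0.21 ± 0.04 and on 3 of 4 arrays. Dgat2 lay above Lpin2 by only 0.05 ± 0.05 and on 2 of 4 arrays, and the other neighbours did not differ beyond the spread of the pools. The order holds for probe 1 alone. Over the mean of its detected probes Lpin2 had -0.17, and with GALP in Cy3 only it had -0.0005 at probe 1. Without the less weight loss array with GALP in Cy3, Lpin1 had 0.20, below Mogat2 (0.33), Dgat2 (0.29) and Lpin2 (0.29).

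**Figure D3:**
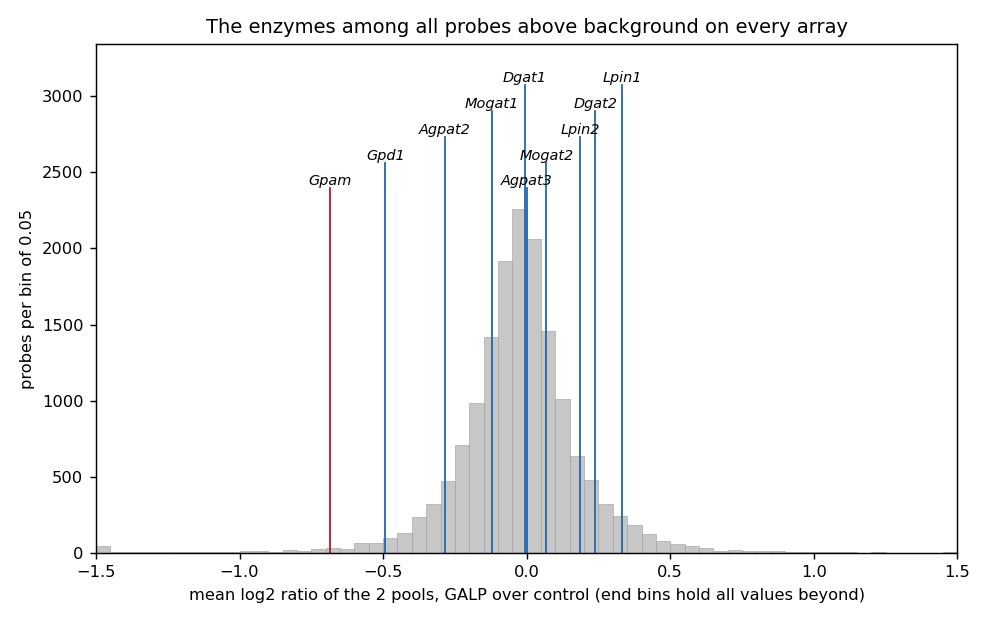
Grey bars count the 15724 detected probes by their mean log2 ratio of GALP over control (x axis, bins of 0.05), and each vertical line is probe 1 of an enzyme, red where called. Gpam, with 1.22% of detected probes below it, and Gpd1, with 2.4% below it, are in the left tail. The other lines lie within the body or shoulders of the distribution.

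Over the 25 detected probes the median absolute difference between the pools was 0.10, and the median gap between the 2 dye orientations of a pool was 0.16, while over all detected probes these were 0.11 and 0.21. At 6 of the 25 probes the pools differed by more than both dye gaps, and 16.3% of all detected probes did. These were Mogat1 probes 1 and 2, Mogat2 probe 1, Lpin1 probe 2, Agpat3 probe 1 and Dgat1 probe 1. For the last of them the difference was only 0.13, and for Agpat3 it was -0.08. The skeletal muscle markers moved between the same pools, with summed signals of 3533 and 4351 in the greater and 516 and 529 in the less weight loss pool. Their part in the pool differences of the enzymes was not tested.

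**Figure D4:**
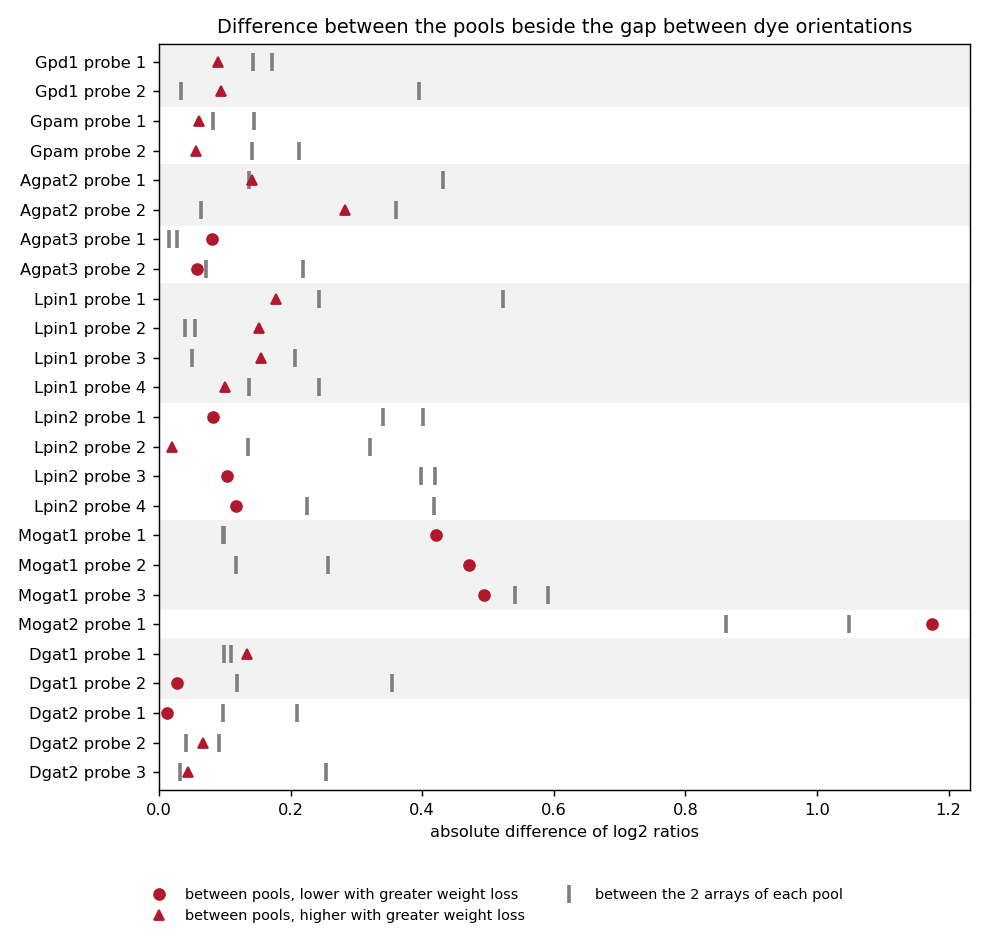
For each of the 25 detected probes (rows), the red symbol gives the absolute difference of the log2 ratio between the pools, a circle where the pool with greater weight loss was lower and a triangle where it was higher, and grey ticks give the gap between the 2 arrays of each pool. Mogat1 and Mogat2 show the widest differences between pools (greater minus less, from -0.42 at Mogat1 probe 1 to -1.17 at Mogat2 probe 1), and the Gpam symbols lie left of both ticks.

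The genes whose 4 ratios lay closest to those of Gpam probe 1 were found by Euclidean distance among 14453 probes well above background in every channel. They were Mrnip (distance 0.11, mean -0.71), Nudt7 (0.14, mean -0.64), Ddc (0.15, mean -0.71), Idi1 (0.17, mean -0.74) and Stk38l (0.18, mean -0.64). The first 4 of them were called lower, and Stk38l was not. The calls rest on the same ratios by which these genes were picked, so they are no separate evidence. Nudt7 encodes a peroxisomal coenzyme A diphosphatase, Ddc the aromatic amino acid decarboxylase and Idi1 an enzyme of isoprenoid and sterol synthesis. The likeness is over 4 arrays that share a control pool.

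Other enzymes of the same steps were taken from a list of 14 genes, of which Awat1 was not matched to a probe name and 11 were detected. None was called in either direction, 1 was below 0 and 5 above 0 on all 4 arrays, and the median ratio was 0.11, beside 14.5% below, 12.8% above and a median of -0.01 over all gene names detected. Gpat3, an acyltransferase of the endoplasmic reticulum that carries out the same reaction as Gpam, had 0.40, 0.61, 0.51 and 0.67 at its brightest probe. Its mean was 0.55 ± 0.06, and the ratios of its other probe were above 0 on all 4 arrays too (0.51, 0.55, 0.36 and 0.50). It was not called. At its brightest probe the fold was under 1.5 in the greater weight loss pool (log2 ratio 0.50), and only 2 arrays had a Feature Extraction p-value under 0.01. On each array Gpat3 was above 0 where Gpam was below. Gpd1l, a relative of Gpd1, had 0.27 ± 0.00 and was above 0 on all 4 arrays, while its second probe had both signs. Gpd2, the mitochondrial enzyme that uses glycerol-3-phosphate in a shuttle, had -0.40, -0.12, -0.25 and -0.38, with a mean of -0.29 ± 0.04.

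The long-chain acyl-CoA synthetases supply the activated fatty acids. Of 5 genes, 3 were detected and 0 were called, with a median of 0.14. The only probe of Acsl5 carried an outlier mark on at least 1 array and was left out. Acsl3, which is tied to lipid droplet formation, had -0.60, -0.32, -0.52 and -0.51, a mean of -0.49 ± 0.04, and 1 array had a Feature Extraction p-value under 0.01. Acsl1, the main form in liver, had 0.14 ± 0.00 and Acsl4 had 0.21 ± 0.14, each with 1 array below 0.

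Of 20 regulators of these genes, 19 were detected, 8 were below 0 and 1 above 0 on all 4 arrays, and the median was -0.05. Over all gene names detected, 14.5% were below 0 and 12.8% above 0 on all 4 arrays, with a median of -0.01. Insig1, which retains SREBP in the endoplasmic reticulum, was called lower, with -0.56, -0.56, -0.81 and -0.70 and a mean of -0.66 ± 0.14. Its other probe had -0.20, -0.49, -0.46 and -0.54, with a mean of -0.42 ± 0.11, and was not called. With normexp and loess in place of the deposited ratios, 0 regulators were called lower at their brightest probe, so the call of Insig1 was lost. Over all probes this setting called 26 lower, where the deposited ratios gave 54. Insig2 had -0.53, -0.78, -0.38 and -0.64 at its brightest probe (mean -0.58 ± 0.10, not called), and was called lower at the other, with a mean of -0.76 ± 0.17. Among the brightest probes of all gene names, 0.342% were called lower and 0.175% higher. Srebf1, which encodes SREBP-1, had -0.32, -0.19, -0.61 and -0.42, below 0 on all 4 arrays, with a mean of -0.38 ± 0.18, and 1 array had a Feature Extraction p-value under 0.01. The other 16 detected regulators, among them Mlxipl (ChREBP), Nr1h3 (LXRα) and the PPAR genes, were not called.

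**Figure D5:**
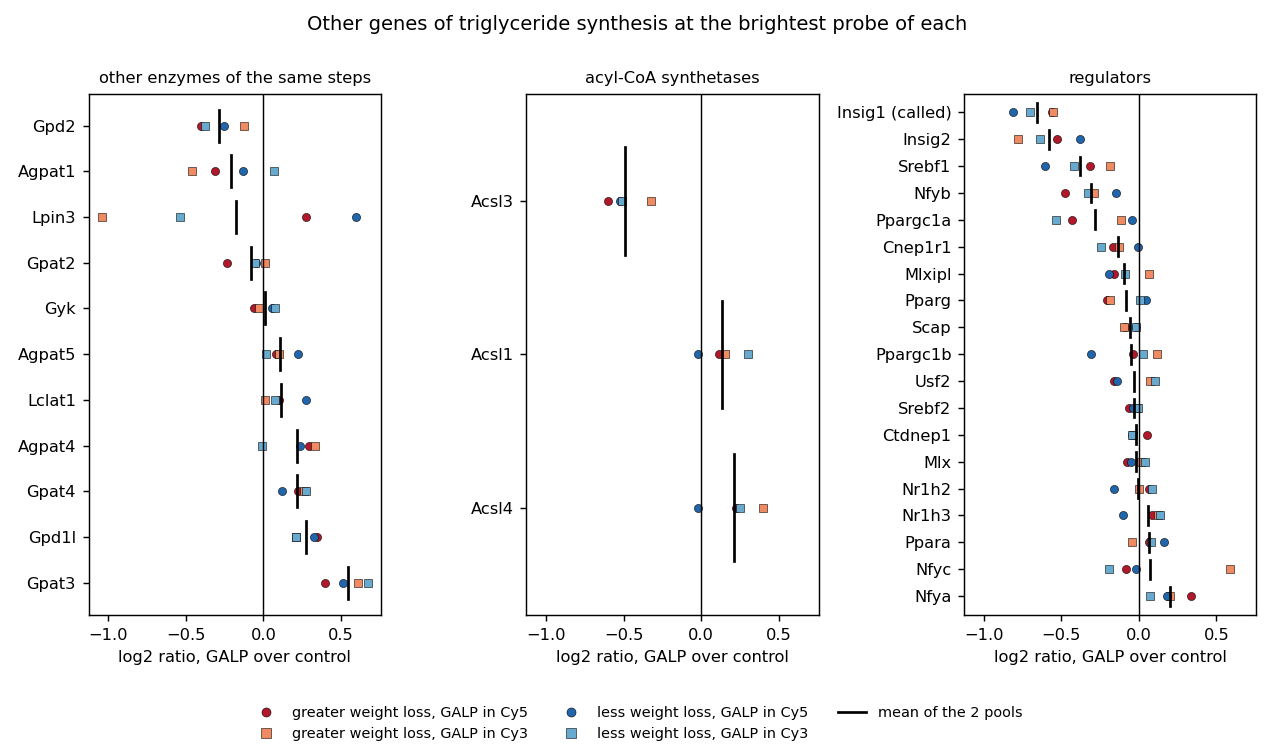
The log2 ratio of GALP over control (x axis) is plotted for the brightest probe of each detected gene in the 3 lists (other enzymes of the same steps, acyl-CoA synthetases, regulators), with points for the 4 arrays and a black bar for the mean of the 2 pools. Gpat3 stands at the right with a mean of 0.55, and Insig1 (-0.66), Insig2 (-0.58) and Acsl3 (-0.49) stand at the left.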

How the data were processed

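Pooled liver RNA (500 ng labelled) of 2 groups of 4 GALP-treated mice was hybridised against that of 8 control mice in dye swaps, on 4 Agilent arrays of 1 slide. The authors extracted the spots with Agilent Feature Extraction, for which the labels name version 11.0.1.1 and the file headers 12.0.3.1, whereas the methods name another. Background subtraction and LOWESS dye normalization were done by the software. The deposited files give, per spot, the processed intensity of each channel, the log10 ratio of Cy5 over Cy3, and a p-value from its error model, which compares the extracts on 1 array. At 29.6% to 35.3% of the spots of an array the deposited log10 ratio is exactly 0. A deposited table of the series, with these log10 ratios already in the direction GALP over control, served as an alternative.

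Every log10 ratio was given the direction GALP over control and converted to log2. Spots with an outlier mark (232 to 319 per array) were left out, spots of a probe were averaged, and then the 2 arrays of a pool. Where a gene has several probes, the one with the highest mean signal is probe 1. A probe not well above background on 1 side on any array was given as a limit (at least N-fold), from the lowest signal among probes well above background on each array. How many arrays must pass the p-value threshold is not given in the methods, and all 4 were required. limma 3.58.1 in R 4.3.3 (lmFit, eBayes) tested the 2 pool ratios against 0 with Benjamini-Hochberg adjustment over 41037 probes and 1 residual degree of freedom. It leaves out the spread of the control. It was also run on simulated data, but these drew the 2 pools independently and could not show the effect of a shared control. With the pool as a random block, duplicateCorrelation gave no value. The correlation within a pool (0.0992) was instead estimated from mean squares over the detected probes, a change made after seeing the data.

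The members, the gene lists and the tests were chosen with earlier results of these data known. All members were named with every probe. From the lists of other enzymes, acyl-CoA synthetases and regulators, genes with a called probe and the 3 with the largest absolute mean ratio were named, together with the 5 genes closest to Gpam. The alternatives were normexp background correction (offset 50) with loess, centring, the series table, other p-value and fold rules, filters on marks and signal, each dye orientation or pool alone, and each array left out. Promoter sequences are those of RefSeq on GRCm38.p6. Scripts ran in Python 3.11.15 (numpy 2.4.6, pandas 2.3.3, matplotlib 3.10.9).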

Additional observations from a re-analysis of the deposited data

Results flagged for a closer look

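At 5 of the 25 detected probes (20%) both arrays of one pool lay above 0 and both arrays of the other below it, beside 914 of 15724 detected probes (5.81%) over the array. The difference between the pools was not tested, since each weight loss group is 1 pool, and the pools share the control. As greater minus less weight loss on the log2 scale, the difference was -0.42 at Mogat1 probe 1 and -0.47 at Mogat1 probe 2. Mogat2 probe 1 differed by -1.17, with 3 of 4 channels well above background on each side. Agpat3 probe 1 differed by -0.0806 and Dgat1 probe 1 by 0.13, with ratios within 0.12 of 0 on all 4 arrays.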

How the results depend on the processing

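Both Gpam probes were called lower under each alternative to the calling rule that was run, including each array left out, and 0 probes were called higher. No other probe was called lower except without a Feature Extraction p-value, where the count was 4, with 1 probe each of Gpd1 and Lpin2 added, beside 360 over all probes. With limma, normexp and loess gave 2 lower probes at an adjusted p under 0.05 (53 over all probes), and Gpam then had -0.72 with an adjusted p of 0.0328. Under the other limma alternatives with adjustment the count was 0. Without adjustment 7 were lower and 5 higher. Some gene ratios changed sign, most of them near 0. In the less weight loss pool alone Mogat1 had 0.0901, and in the greater weight loss pool alone Dgat1 had 0.061, Agpat3 -0.0392 and Mogat2 -0.52. With normexp and loess Dgat1 had 0.0594 and Mogat2 -0.0013. With GALP in Cy5 only Dgat1 had 0.0464, and with GALP in Cy3 only Agpat3 had -0.0019, Mogat2 -0.41 and Lpin2 -0.0005. Over the mean of detected probes Dgat1 had 0.0465, Agpat3 -0.0902 and Lpin2 -0.17 (0.19 at probe 1). With each array left out in turn, Dgat1 ran from -0.0331 to 0.0216, Agpat3 from -0.0058 to 0.008 and Mogat2 from -0.19 to 0.33, while Lpin1 kept its direction, from 0.20 to 0.46. Among other pathway genes, 1 other enzyme was called higher with GALP in Cy3 only, and the regulators called lower were 0 with normexp and loess and 2 with GALP in Cy3 only or with any probe of a gene. The cause was not tested. Each ratio pairs a GALP pool with the control on the same array. The 2 GALP pools were not paired with each other, since they hold different mice. Low signal limits Mogat2 and Lpin2 probes 4 and 5.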
